A study of Rattus norvegicus with 54 samples.

Results

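The 9 genes described here encode ETS family transcription factors: Ets1, Ets2, Erg, Fli1, Elk1, Etv1, Elf1, Elf2, and Gabpa. They were chosen by name from the deposited expression table of the rat heart, and all 9 were among its 10257 genes. Hearts came from 54 male wildtype Wistar rats, about 7 to 8 weeks old when the protocol began, housed alone under a light to dark cycle with 12 h of light for 5 weeks. The 18 C rats ate at will and were left undisturbed. The 18 W rats spent part of the light phase on weekdays in a slowly turning drum that kept them awake, with food at all times. The 18 WRF rats worked the same schedule but had food only outside of work. All rats were killed on a day without work. Each group gave 3 hearts per time, taken at ZT1, 5, 9, 13, 17, or 21, where ZT counts hours from lights on. The study names both atria and ventricles as the tissue, but atrial RNA differed widely among libraries, as given below. RNA came from mixed tissue, so fewer cells of a type and less RNA per cell cannot be told apart.

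ETS factors share a winged helix domain that binds DNA around a GGAA core. ERG and FLI1 are best known in endothelium, where they maintain the genes of vessel identity, and ETS1 and ETS2 act downstream of MAP kinase signaling in endothelial and immune cells. ELK1 works with serum response factor at immediate early genes, ETV1 belongs to the PEA3 group and takes part in the identity of fast-conducting atrial and Purkinje myocytes, ELF1 and ELF2 act in blood and endothelial cells, and GABPA is the DNA-binding subunit of GABP, a regulator of genes of mitochondrial function.

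Levels are given in fpkm, fragments per length of transcript and library size, a scale on which genes can be compared. In C rats, Ets1 had the highest level of the members, at a median of 21.4 fpkm, followed by Elk1 at 13.4. Fli1, Erg, Ets2, and Elf2 followed with medians of 8.59, 8.34, 8.29, and 7.82 fpkm, and Gabpa and Elf1 with 4.45 and 4.11. Etv1 was lowest, with a median of 1.78 fpkm. Ets1 exceeded Elk1, Elk1 exceeded Fli1, and Elf2 exceeded Gabpa in all 18 C rats. The neighbors in between could not be ordered: Fli1 was above Erg in 12 of 18 C rats, Erg above Ets2 in 9, and Ets2 above Elf2 in 10. The median of Ets1 was above 78.8% of the genes of the table and that of Etv1 above 13.6%.

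**Figure D1:**
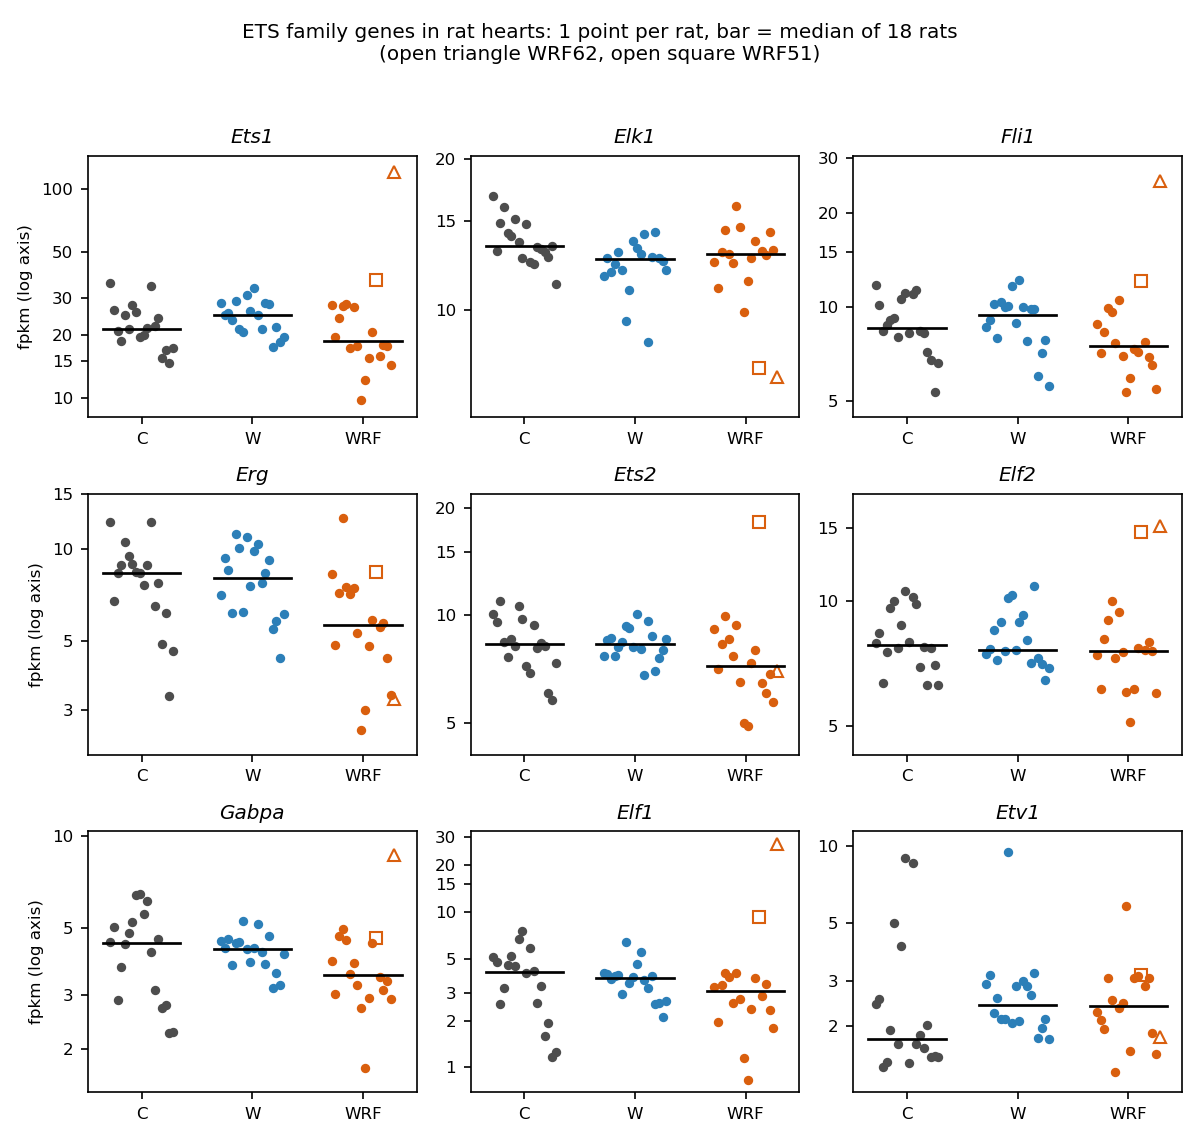
Level of each member (fpkm, log axis) in every rat of the C, W, and WRF groups, with a bar at the median of 18 rats. Erg medians were 8.34, 8.03, and 5.67 fpkm, and the libraries WRF62 (triangle) and WRF51 (square) lie apart for most other members.

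Libraries WRF62 and WRF51 stood apart from the other 52. WRF62 held 106 fpkm of the T-cell gene Cd3e against 0.577 to 4.75 in the other 52 rats, and 371 fpkm of the cardiac myosin Myh6 against at least 1310. WRF51 held 1419 fpkm of Ager, a lung epithelial gene, against at most 6.69, with Myh6 at 52.1 fpkm. The defining cardiac markers were thus low in both. In WRF62, Ets1 reached 119 fpkm, Elf1 27.4, Fli1 25.5, Elf2 15.1, and Gabpa 8.64, each the highest value of all 54 rats. WRF51 had the highest Ets2, 18.2 fpkm, and the next highest Ets1, Elf1, and Elf2. Elk1 was lowest in these libraries, at 7.36 and 7.67 fpkm. Results are therefore given with and without both.

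The first question was whether members differed among C, W, and WRF rats. No member passed the Kruskal-Wallis test at an adjusted p of at most 0.05, which 9.17% of all genes passed, and 2 had an unadjusted p under 0.05 (28.8% of all genes), Erg and Elk1. The adjusted p over all genes was 0.0643 for Erg, 0.103 for Elk1, and between 0.279 and 0.833 for the other 7. With limma, which compares group means of log2(fpkm + 1), Erg was the 1 member called lower in WRF than in C rats (1.68% of all genes were called lower, and 6.7% at an unadjusted p under 0.05). It was also the 1 member called lower in WRF than in W rats (1.83% of all genes, and 6.16% unadjusted). Between W and C rats limma called none of the members and 0% of all genes; 1 member, Elk1, was lower at an unadjusted p under 0.05, as were 0.429% of all genes. With each library divided by its median ratio to the others (median-of-ratios scaling), limma called 601 genes higher and 516 lower for WRF minus C, against 1154 and 172 without scaling, and 502 and 471 for WRF minus W, against 1275 and 188. Erg remained the 1 member called lower in both, where 5.03% and 4.59% of all genes were called lower. The medians over all genes were 0.08 for WRF minus C, 0.08 for WRF minus W, and -0.01 for W minus C on the log2 scale. The comparisons of WRF share rats, as do those with C.

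**Figure D2:**
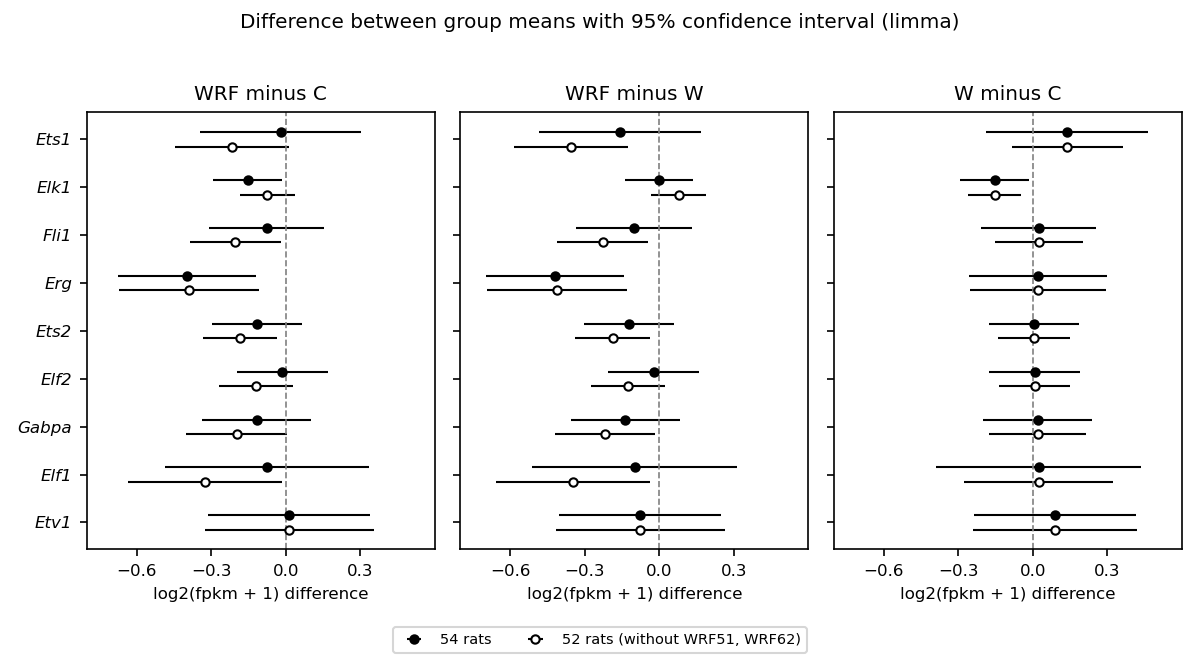
Difference between group means on the log2(fpkm + 1) scale with 95% confidence intervals from limma, for all 54 rats (filled) and without WRF51 and WRF62 (open). With all rats, the intervals of Erg lie below 0 for WRF minus C and WRF minus W, and without both libraries Ets1 moves from -0.16 to -0.35 for WRF minus W.

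Erg, a factor of vascular development and stability, ranged from 3.33 to 12.2 fpkm in C rats around a median of 8.34. W rats lay between 4.43 and 11.2 with a median of 8.03. WRF rats lay between 2.57 and 12.6 with a median of 5.67. The groups overlapped, but 16 of 18 WRF rats were below the C median against 10 of 18 W rats, and 3 WRF rats were below the lowest C rat. The highest rat of all was also a WRF rat, WRF4. The difference was -0.40 on the log2(fpkm + 1) scale for WRF minus C (SE 0.14, limma adjusted p = 0.0479) and -0.42 for WRF minus W (SE 0.14, limma adjusted p = 0.0380). For W minus C it was 0.02, with a 95% interval of -0.26 to 0.30. Exact 2-sided Mann-Whitney tests without adjustment gave p = 0.00787 for WRF against C, 0.00518 for WRF against W, and 0.963 for W against C. Without WRF51 and WRF62 the difference was -0.39 for WRF minus C (limma adjusted p = 0.0596) and -0.41 for WRF minus W (limma adjusted p = 0.0460). Leaving out WRF62 alone gave limma adjusted p = 0.0779 and 0.0602, and leaving out W21, a library with 1537 fpkm summed over 7 liver markers, gave 0.0577 for WRF minus W. Erg was thus near the threshold by either test and passed it by limma only.

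Within each group the rat numbers form 3 runs of 6 rats, 1 rat per time, and Erg differed among the runs of a group. The run medians in C rats were 9.15 fpkm in C17-C22, 8.64 in C25-C30, and 5.55 in C33-C38. In W rats they were 8.95, 8.78, and 5.97. In WRF rats they were 7.35 in WRF1-WRF6, 4.04 in WRF41-WRF46 with WRF62, and 5.67 in WRF50-WRF55. The lowest C and W runs thus overlapped the WRF runs, and what a run stands for is not stated in the labels. The Kruskal-Wallis adjusted p of Erg was 0.00721 without C33-C38 and 0.00764 without WRF1-WRF6. It was 0.533 without WRF41-WRF46 and WRF62, and 0.340 without WRF50-WRF55. The whole table moved with these runs. Kruskal-Wallis called 2757 of 10257 genes without C33-C38 and 3201 without WRF1-WRF6, against 941 with all rats. It called 0 genes without WRF41-WRF46 and WRF62, and 0 without WRF50-WRF55, so no gene passed there. By limma, the WRF minus C call of Erg was lost without any 1 of 7 runs (adjusted p from 0.0551 to 0.412), and held without C33-C38 or WRF1-WRF6. Over all genes, limma called 4 to 119 lower without any 1 of those 7 runs, against 172 with all rats. It called 1353 lower without C33-C38 and 765 without WRF1-WRF6.

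Erg was also read by the atrial content of the library. The summed level of 6 atrial markers had medians of 163, 352, and 1184 fpkm in C, W, and WRF rats, with overlapping ranges. In the 32 libraries with at most 100 fpkm of Myl7, the atrial myosin light chain, Erg medians were 8.05 fpkm in 12 C rats, 7.08 in 11 W rats, and 7.18 in 9 WRF rats. There the WRF minus C difference was -0.09 (SE 0.19) and the exact Mann-Whitney p was 0.554. These 9 WRF rats include WRF51, with 8.41 fpkm of Erg, and no test of this set without that library was made. In the 22 libraries above that level, Erg ranged from 6.75 to 12.2 fpkm in 6 C rats, from 6.23 to 11.2 in 7 W rats, and from 2.57 to 7.47 in 9 WRF rats. The WRF rats overlapped the others only between 6.23 and 7.47 fpkm. They include WRF62, with 3.24 fpkm of Erg, while the ends of their range were WRF44 and WRF41. Whether the difference depends on atrial content was not tested. The limit was set with these data known, and WRF5 and WRF55, at 97.0 and 90.6 fpkm of Myl7, lie just below it.

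By time, the mean of Erg was lower in WRF than in C rats at 4 of 6 times. At ZT5 the WRF rats had 4.66 ± 1.32 fpkm (SD, n = 3) and the C rats 7.63 ± 0.832 (SD, n = 3), and all 3 WRF rats lay below all 3 C rats, as in 4.46% of all genes. At ZT9 the means were 7.69 ± 0.642 and 7.20 ± 1.98 (SD, n = 3 each). The WRF rats at ZT5 include WRF62 and those at ZT9 include WRF51. Without both, the WRF means were 5.36 fpkm at ZT5 and 7.32 at ZT9 (n = 2 each). With 3 rats against 3 an exact test cannot go below p = 0.10, so single times were not tested.

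**Figure D3:**
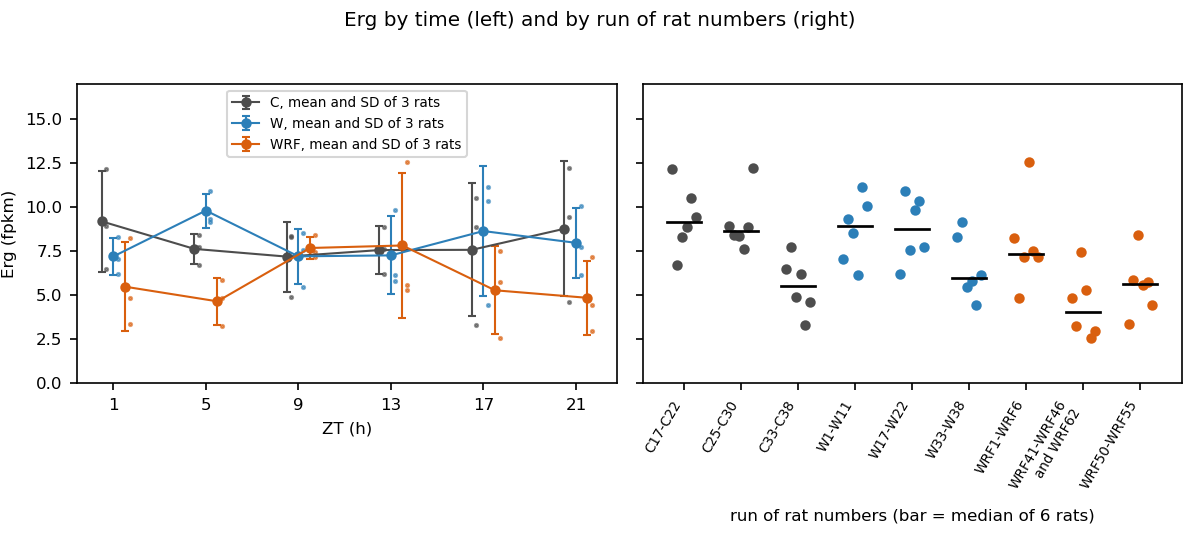
Erg (fpkm) by ZT in each group, mean and SD of 3 rats with single rats beside them (left), and by run of rat numbers, with a bar at the median of 6 rats (right). The runs C33-C38 and W33-W38, with medians of 5.55 and 5.97, lie in the range of the WRF runs.

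The gene whose level followed Erg most closely was Cdh5, the VE-cadherin of endothelial junctions (Spearman's rho = 0.923 over 52 rats, without WRF51 and WRF62). Adgrf5, an adhesion receptor, was next with 0.897 and Fnbp1l with 0.891. These rats share libraries and depth, and 23.6% of 9990 genes had a rho above 0.5 with Erg. The ratio of Erg to Cdh5 levels had a median of 0.267 in C rats (0.211 to 0.334), 0.266 in W rats (0.208 to 0.333), and 0.289 in WRF rats (0.206 to 0.392). The groups overlapped in this ratio. Cdh5 itself had medians of 31.3, 29.7, and 20.3 fpkm in C, W, and WRF rats.

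**Figure D4:**
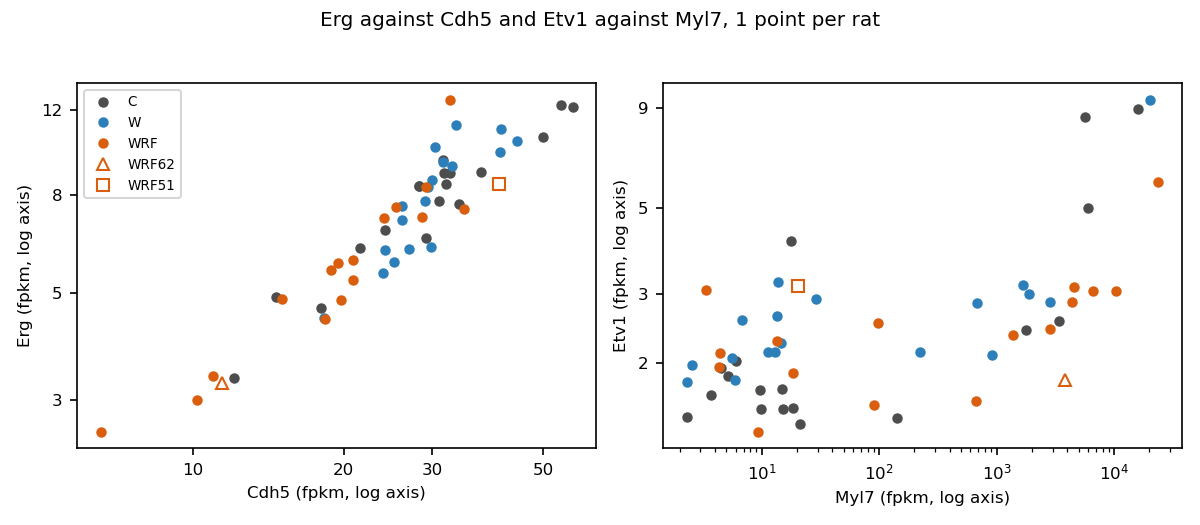
Erg against Cdh5 (left) and Etv1 against Myl7 (right), all in fpkm on log axes, 1 point per rat colored by group. Erg and Cdh5 fall along 1 line in all groups (rho = 0.923 over 52 rats), and the 5 highest Etv1 values lie at 5704 fpkm of Myl7 or more.

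Endothelial genes known as targets of ERG or FLI1 were then read from a list of 24, all in the table. Kruskal-Wallis called 2 of them, Flt1 and Robo4, where 9.17% of all genes were called. Limma called 4 lower and 0 higher in WRF than in C rats, Cdh5, Flt1, Robo4, and Dll4, where 1.68% of all genes were called lower. Without WRF51 and WRF62 these counts were 1 (Kdr) and 5, the latter with Kdr added. There Kruskal-Wallis called 659 of 10257 genes, and limma called 163 (1.59%) lower. With median-of-ratios scaling both tests called 5, the same 4 genes and Kdr, where Kruskal-Wallis called 4.31% and limma called lower 5.03% of all genes. The median difference over the list was -0.12, beside 0.08 over all genes. Flt1, a VEGF receptor, fell from a median of 16.6 fpkm in C rats to 12.7 in WRF rats (-0.46, SE 0.12, limma adjusted p = 0.0093). Robo4, a guidance receptor of endothelium, went from 1.92 to 1.43 fpkm (-0.35, SE 0.10, limma adjusted p = 0.0157). Kdr, the main VEGF receptor, had medians of 15.6 and 13 fpkm and missed the threshold (-0.33, SE 0.12, limma adjusted p = 0.0610). The summed level of 12 endothelial markers was also read, all of them among the 24 listed genes. Its median was 328 fpkm in C rats (238 to 428), 330 in W rats, and 296 in WRF rats (177 to 953). The WRF ends were WRF62 and WRF51, and without both the WRF rats ran from 238 to 388 fpkm. Limma called 3 of these 12 markers lower and 0 higher in WRF than in C rats. These were Cdh5, Flt1, and Robo4, already among the 4 above, so the markers are not a separate reading. The part of endothelial content in the level of Erg was not tested.

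Fli1, the closest relative of Erg in this set, lay at medians of 8.59 fpkm in C rats (5.34 to 11.8), 9.48 in W rats (5.61 to 12.2), and 7.50 in WRF rats (5.34 to 25.5). The groups overlapped, and the difference was -0.08 for WRF minus C (95% interval -0.31 to 0.16, limma adjusted p = 0.669). Without WRF51 and WRF62 it was -0.20 (95% interval -0.39 to -0.02, limma adjusted p = 0.124). Erg and Fli1 had a rho of 0.833 over 52 rats. The gene most like Fli1 was F8, coagulation factor VIII, which endothelium makes, with a rho of 0.895, and the ETS gene Elk3 was among the next, with 0.883.

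Ets1 ranged from 14.7 to 35.3 fpkm in C rats, from 17.5 to 33.4 in W rats, and from 9.73 to 119 in WRF rats, with medians of 21.4, 24.9, and 18.8. The groups overlapped, but 3 WRF rats were below the lowest C rat, and WRF62 and WRF51 were above the highest. WRF minus W was -0.16 with all rats (SE 0.16, limma adjusted p = 0.503) and -0.35 without WRF51 and WRF62 (SE 0.11, limma adjusted p = 0.0397). Without both, Ets1 and Erg were the 2 members called lower in WRF than in W rats, as were 2.09% of all genes, and none was called lower in WRF than in C rats, as were 1.59%. The call for Ets1 thus rested on leaving out libraries in which it was high. The gene most like Ets1 was Kitlg, the KIT ligand (rho = 0.894).

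Ets2 ranged from 5.80 to 11 fpkm in C rats, from 6.82 to 10.1 in W rats, and from 4.89 to 18.2 in WRF rats. The medians were 8.29, 8.30, and 7.21. The groups overlapped, and WRF minus C was -0.12 (95% interval -0.30 to 0.06, limma adjusted p = 0.370). Without WRF51 and WRF62 it was -0.18 (limma adjusted p = 0.0942). The genes most like Ets2 were Enpep, an aminopeptidase (rho = 0.789), the semaphorin receptor Plxnd1 (0.780), and Fli1 (0.773).

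Elk1, the ternary complex factor, varied least of the members among C rats, with a highest value 1.5 times the lowest. It ranged from 11.3 to 16.9 fpkm in C rats (median 13.4), from 8.65 to 14.3 in W rats (12.6), and from 7.36 to 16.1 in WRF rats (12.9). The groups overlapped, with 15 of 18 W rats and 13 of 18 WRF rats below the C median. The exact Mann-Whitney test gave p = 0.00416 for W against C, 0.0790 for WRF against C, and 0.406 for WRF against W, none adjusted. Limma gave -0.15 for both W minus C (SE 0.07, unadjusted p = 0.0303, adjusted p = 1.0) and WRF minus C (SE 0.07, unadjusted p = 0.0297, adjusted p = 0.117). Elk1 thus did not pass the test over all genes. Without WRF51 and WRF62, its 2 lowest libraries, WRF minus C was -0.07.

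The W rats were lowest in Elk1 at ZT1, with values of 8.65, 9.50, and 11.7 fpkm against 13.3, 15.2, and 16.9 in C rats. All 3 W rats lay below all 3 C rats at that time, as in 2.42% of all genes, and at ZT5, as in 4.31%. At ZT9 the means were 13.3 ± 1.25 and 13.5 ± 1.16 fpkm (SD, n = 3 each). Of 12 genes in the table listed as targets of ELK1 and serum response factor, which include Fos, Egr1, Ier2, and Junb, none was called by either test. Their median difference was -0.21 for W minus C (-0.01 over all genes), 0.13 for WRF minus C (0.08), and 0.34 for WRF minus W (0.08). The member of that list with the smallest p was Dusp2, a MAP kinase phosphatase (medians 0.716, 0.829, and 1.10 fpkm, Kruskal-Wallis adjusted p = 0.0531), which held 31.5 fpkm in WRF62.

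Etv1 was low in most hearts and high in a few. C rats ranged from 1.39 to 8.96 fpkm (median 1.78), W rats from 1.79 to 9.46 (2.41), and WRF rats from 1.33 to 5.81 (2.40). All 18 W rats and 15 of 18 WRF rats lay above the C median, while the groups overlapped. The exact Mann-Whitney test gave p = 0.0290 for W against C and 0.192 for WRF against C, and the Kruskal-Wallis adjusted p was 0.279. Limma, which compares means, gave 0.09 for W minus C (95% interval -0.24 to 0.42, adjusted p = 1.0).

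The 5 highest Etv1 values were 9.46 fpkm in W17, 8.96 in C27, 8.54 in C29, 5.81 in WRF44, and 5.0 in C22. These libraries held between 5704 and 23938 fpkm of Myl7, and the sixth, C26, with 4.10 fpkm of Etv1, held 17.9. Over 52 rats the rho of Etv1 was 0.595 with Myl7 and 0.666 with the summed level of 6 atrial markers. The 5 highest Etv1 values thus came with atrial RNA, but the relation was not particular to it. The rho of Etv1 was 0.678 with the summed level of 9 fibroblast markers. It was 0.777 with the median ratio of a library to the others. WRF46, with 10519 fpkm of Myl7, held 3.06 fpkm of Etv1. In the 32 libraries with at most 100 fpkm of Myl7, Etv1 had medians of 1.68 fpkm in C rats, 2.13 in W rats, and 2.12 in WRF rats, with an unadjusted exact Mann-Whitney p of 0.00218 for W against C in 12 and 11 rats and a Kruskal-Wallis adjusted p of 0.312. The genes most like Etv1 were Ugdh (0.872), Mal (0.847), and Lhfp (0.845).

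None of Elf1, Elf2, and Gabpa was called between groups. Elf1 had medians of 4.11 fpkm in C rats (1.16 to 7.56), 3.73 in W rats (2.10 to 6.42), and 3.09 in WRF rats (0.830 to 27.4). Elf2 had medians of 7.82 (6.25 to 10.6), 7.63 (6.44 to 10.8), and 7.57 (5.11 to 15.1). Gabpa had medians of 4.45 (2.26 to 6.46), 4.26 (3.16 to 5.27), and 3.49 (1.72 to 8.64). The groups overlapped for all of them, with 16 of 18 WRF rats below the C median for Elf1 and 13 of 18 for Gabpa. The 95% intervals for WRF minus C were -0.49 to 0.33 for Elf1, -0.20 to 0.17 for Elf2, and -0.34 to 0.10 for Gabpa (limma adjusted p = 0.825, 0.927, and 0.464). Without WRF51 and WRF62 the differences were -0.32 for Elf1, -0.12 for Elf2, and -0.20 for Gabpa, with none called.

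The runs of C rats differed in these genes, as seen after the values were known. Elf1 ranged from 4.03 to 7.56 fpkm in C25-C30 and from 1.16 to 3.36 in C33-C38, without overlap. Gabpa had run medians of 4.45, 5.84, and 2.75 fpkm in C17-C22, C25-C30, and C33-C38. Without C33-C38, Kruskal-Wallis called 3 members, Erg, Elk1, and Elf1 (adjusted p = 0.0282 for Elf1), with 2757 genes called in all, against 941 with all rats.

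Of 17 genes in the table listed as targets of GABP, Kruskal-Wallis called 1, where 9.17% of all genes were called. This was Rpl32, a ribosomal protein gene that was higher in WRF rats (medians 698, 808, and 910 fpkm). With median-of-ratios scaling Kruskal-Wallis called none of the list, where 4.31% of all genes were called. Tfam, the mitochondrial transcription factor, had medians of 27.1, 27.4, and 29.1 fpkm (Kruskal-Wallis adjusted p = 0.0586). Yap1, a coactivator of the Hippo pathway, had medians of 16.2, 14.5, and 10.5 fpkm (Kruskal-Wallis adjusted p = 0.0763). Without WRF51 and WRF62, Kruskal-Wallis called Tfam and the cytochrome oxidase genes Cox4i1 and Cox7c and no longer Rpl32. Over the whole table it called 659 of 10257 genes there. Limma called Rpl32 alone in the list for WRF minus C, as higher, where 11.3% of all genes were called higher. Without both libraries it called 5 genes higher (Rpl32, Tfam, Cox4i1, Cox7c, and Cox17), where 9.32% of all genes were. The list's median was 0.03, beside 0.08 over all genes.

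Of the 8 other ETS genes in the table, out of 19 listed, none was called by Kruskal-Wallis. Spi1, the myeloid factor PU.1, had medians of 3.56, 3.19, and 4.50 fpkm (Kruskal-Wallis adjusted p = 0.0849). It reached 64.8 fpkm in WRF51, and limma called it higher in WRF than in W rats (0.63, adjusted p = 0.0476, and 0.110 without WRF51 and WRF62).

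The members other than Elk1 and Etv1 varied together between rats. Over 52 rats, the 21 pairs among these 7 had rho values between 0.463 and 0.888, with a median of 0.712. Within groups the medians were 0.626 in 18 C rats, 0.598 in 18 W rats, and 0.847 in 16 WRF rats. The closest pair was Elf1 and Gabpa, with 0.888. Pairs with Elk1 lay between -0.17 and 0.197, and pairs with Etv1 between -0.17 and 0.514. Ets1 lies next to Fli1 on chromosome 8 and Ets2 next to Erg on chromosome 11 of GRCr8, with 0 protein-coding genes between them in the RefSeq table. The rho of Ets1 and Fli1 was 0.786 and that of Ets2 and Erg 0.665, so the neighbors were not closer than Erg and Fli1.

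**Figure D5:**
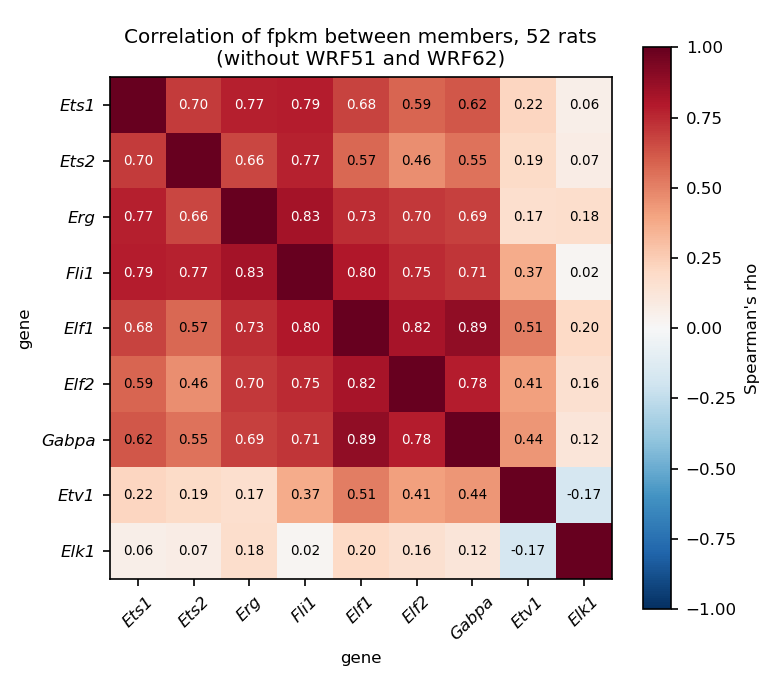
Spearman's rho between the fpkm of each pair of members over 52 rats, without WRF51 and WRF62, with color from -1 (blue) to 1 (red). The pairs among 7 members lie between 0.463 and 0.888, and those with Elk1 and Etv1 are at most 0.514.

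Properties of the whole library moved with the members. The sum of all fpkm in a library had a rho of -0.673 with Erg, -0.612 with Ets1, and -0.548 with Elf1. The summed level of 10 cardiomyocyte markers had a rho of -0.779 with Elf1 and -0.731 with Gabpa. Dividing each library by its median ratio to the others left the 21 pairs between 0.285 and 0.838. The genes most like Elf1 were Iqgap1 (0.956), Jmjd1c, and Kidins220, those most like Elf2 were Enpp4 (0.928), Smurf2, and Ahctf1, and those most like Gabpa were Uba6 (0.943), Pcm1, and Ate1. Of 9990 genes, 32.5% had a rho above 0.5 with Elf1, so many genes shared this pattern.

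Promoters of the closest pair and of Erg are shown because Elf1 and Gabpa varied together between rats and Erg was the member called. Each runs from 250 bases before to 50 bases after the gene start in RefSeq on GRCr8, 5′ to 3′, with the ETS core GGAA or its reverse complement TTCC in capitals. The reference held promoters for 7 members.
Gabpa promoter (chr11:37375014-37375313, plus strand): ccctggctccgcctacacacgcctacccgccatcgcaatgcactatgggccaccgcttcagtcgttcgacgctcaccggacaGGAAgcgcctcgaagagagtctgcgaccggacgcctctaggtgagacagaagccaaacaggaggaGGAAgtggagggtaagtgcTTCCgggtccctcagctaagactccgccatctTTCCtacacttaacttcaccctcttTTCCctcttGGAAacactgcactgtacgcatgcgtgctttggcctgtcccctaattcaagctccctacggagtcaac
Elf1 promoter (chr15:61353776-61354075, plus strand): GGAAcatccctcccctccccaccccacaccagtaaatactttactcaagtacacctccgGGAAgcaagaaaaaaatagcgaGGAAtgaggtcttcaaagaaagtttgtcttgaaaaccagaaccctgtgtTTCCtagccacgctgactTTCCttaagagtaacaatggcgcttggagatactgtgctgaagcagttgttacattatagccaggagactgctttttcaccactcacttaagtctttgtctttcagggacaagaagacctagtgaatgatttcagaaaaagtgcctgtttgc
Erg promoter (chr11:48251517-48251816, minus strand): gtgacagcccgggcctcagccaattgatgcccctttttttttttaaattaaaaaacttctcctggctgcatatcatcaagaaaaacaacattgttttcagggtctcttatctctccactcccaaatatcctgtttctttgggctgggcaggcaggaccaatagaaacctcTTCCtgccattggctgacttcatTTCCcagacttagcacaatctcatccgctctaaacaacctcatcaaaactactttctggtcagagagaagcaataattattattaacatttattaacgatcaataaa
On both strands, GGAA occurred 6 times in the Gabpa promoter, 5 times in that of Elf1, and 2 times in that of Erg. Over 33469 promoters of the same length the median was 3, and 95.8% held at least 1, so a match is a description of letters and not a site. The longer CCGGAAG, which overlaps the core and lies on the reverse strand as CTTCCGG, occurred in 8.75% of promoters and, of these 3, in that of Gabpa, at position -85 from the start.

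Rhythms were read from a 24-h harmonic regression in each group of 18 rats. No member was called at a q under 0.05 in C, W, or WRF rats, where 0.848%, 0%, and 0.039% of all genes were called. At an unadjusted p under 0.05, 2 members passed in C rats, Ets1 and Ets2 (5.91% of all genes), 1 in W rats, Elk1 (3.05%), and none in WRF rats (6.35%). In C rats Ets1 went from 28.4 ± 6.60 fpkm at ZT1 to 18.6 ± 1.51 at ZT13 (SD, n = 3 each), with a fitted peak at ZT0.859, a relative amplitude of 0.224, and a q of 0.577. Ets2 went from 9.65 ± 1.39 fpkm at ZT9 to 6.78 ± 0.938 at ZT17 (SD, n = 3 each), with a fitted peak at ZT4.73, a relative amplitude of 0.165, and a q of 0.365. In W rats their relative amplitudes were 0.0723 and 0.0418. Elk1 in W rats had a relative amplitude of 0.0937 with a fitted peak at ZT13.1 and a q of 1.0.

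Differences in rhythm between groups were tested in limma as the group by time terms. No member and no gene passed after adjustment. At an unadjusted p under 0.05, none of the members passed for W against C (1.83% of all genes) or WRF against W (6.71%), and Ets1 (p = 0.0151) and Elf2 (p = 0.0324) passed for WRF against C (5.76%), each with a limma adjusted p of 0.618. In WRF rats the relative amplitudes of the 9 members lay between 0.0582 and 0.769 with all rats and between 0.0702 and 0.262 without WRF51 and WRF62.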

How the data were processed

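The authors aligned directional polyA libraries to rn6 with TopHat2 and estimated FPKM with Cufflinks, and the deposited FPKM table keeps genes above 1 fpkm in at least 18 rats. Versions and annotation are not given in the sources used here. As these are not counts, no count test was used, and the depth of single libraries was not used here. Groups and times were taken from the sample titles. For 12 WRF rats the other labels give another time, which was tried as an alternative. Of these rats, the study's methods name WRF42 at ZT13, WRF46 at ZT1, and WRF51 at ZT9, the times of the titles. Each column is 1 rat, so p-values measure the spread between rats.

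Groups were compared as in the study, by Kruskal-Wallis tests with Benjamini-Hochberg adjustment over 10257 genes (adjusted p of at most 0.05) and exact 2-sided Mann-Whitney tests (scipy 1.17.1). For sizes, errors, and differences in rhythm, log2(fpkm + 1) values were fitted in R 4.3.3 by limma 3.58.1, on a scale that understates changes of low genes. Rhythm was tested by 24-h harmonic regression on fpkm (q under 0.05). The scripts were tested on simulated data. Rats that share a number in C and W were not taken as pairs: over the 12 such numbers the correlation of deviations from group means ran from -0.078 to 0.57.

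Members and lists were chosen with earlier results of these data known. Up to 4 genes per list with the smallest Kruskal-Wallis p could be named, besides those a test called, and the 3 genes most like each member by Spearman's rho. Promoters came from RefSeq on GRCr8. Alternatives were other pseudocounts (0.1 and 0.5), median-of-ratios scaling, a mean of at least 5 fpkm, time as a covariate, at most 100 fpkm of Myl7, and leaving out libraries or runs of rat numbers. Scaling together with leaving out WRF51 and WRF62 was added after seeing the data. A list of partners and regulators of ETS factors is not reported here.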

Additional observations from a re-analysis of the deposited data

How the results depend on the processing

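No depth per library was used, which limits what can be said of low genes such as Etv1, and what a run of rat numbers stands for is not stated in the labels. The cause of the changes below was not tested. By Kruskal-Wallis 0 members were called, where 941 of 10257 genes were. When only genes averaging 5 fpkm or more were tested, 1 member (Erg) was called, as were 1075 of 6294 genes. The limma F test also called 1 (Erg), as well as 1244 of 10257 genes. By Kruskal-Wallis, leaving out single libraries or runs gave 0 to 3 members, where 0 to 3201 genes were called. By limma, 1 member was called lower for WRF minus C, where 172 of 10257 genes were called lower. With time as a covariate 0 members were called (152 genes lower, and 136 with the times of the other labels). The count was also 0 without WRF51 and WRF62 (163 genes lower) and at most 100 fpkm of Myl7 (1 gene lower). Without both libraries and with scaling it was 2 (Erg and Fli1), where 566 genes were called lower. Leaving out single libraries or runs gave 0 to 2 members, where 4 to 1353 genes were called lower. For WRF minus W, 1 member was called, where 188 genes were called lower. Without WRF51 and WRF62 it was 2 members, where 214 genes were called lower. With scaling as well it was 4 (Ets1, Ets2, Erg, and Fli1), where 525 of 10257 genes were called lower. At most 100 fpkm of Myl7, 0 members and 0 genes were called. Leaving out single libraries or runs gave 0 to 1 members, where 0 to 776 genes were called lower. Under every alternative tried, 0 members were called for W minus C, as rhythmic, or for a difference in rhythm. For W minus C and for differences in rhythm, 0 genes of the whole table passed in any setting. The harmonic regression called 0 genes in W rats, 0 to 8 in WRF rats, and 1 to 119 in C rats. With so few genes called anywhere, these counts show nothing particular to the members.

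Differences near 0 changed sign. At most 100 fpkm of Myl7, WRF minus C was 0.092 for Ets1, 0.075 for Ets2, 0.020 for Fli1, 0.15 for Elf1, 0.10 for Elf2, and 0.10 for Gabpa. The 9 WRF rats of this set include WRF51. That library held their highest Ets1 (36.8 fpkm), Ets2 (18.2), Fli1 (12.1), Elf1 (9.19), and Elf2 (14.7). No fit of this set without WRF51 was made. Under scaling, WRF minus C was -0.042 for Etv1. Leaving out single libraries or runs, WRF minus C ran from -0.16 to 0.052 for Ets1, -0.22 to 0.0084 for Fli1, -0.16 to 0.22 for Etv1, -0.40 to 0.16 for Elf1, -0.11 to 0.066 for Elf2, and -0.31 to 0.070 for Gabpa. W minus C ran from -0.20 to 0.15 for Erg and from -0.087 to 0.29 for Etv1. Erg stayed lower in WRF rats under all 21 alternatives, from -0.62 to -0.09 for WRF minus C and from -0.62 to -0.10 for WRF minus W.

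With a replicate block by rat number in the 24 C and W rats that share one, 1707 genes had an unadjusted p under 0.05 against 887 without the block, and 0 were called either way. Of the 12 numbers, 1 correlated best with its own number, so the numbers were not used to pair rats.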
